A study of Mus musculus with 24 samples.

Results

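The 39 genes described here encode the Toll-like receptors and the NF-kB pathway behind them, and they were taken by symbol from the 55421 mouse genes counted by bulk RNA sequencing of bone marrow-derived macrophages (BMDMs). They comprise 10 receptors, 2 co-receptors, 4 adaptors, 8 kinases and ligases, 5 NF-kB subunits, 5 IkB proteins and 5 other feedback inhibitors. The rule uses gene symbols and no measured value, although the genes were proposed with earlier results of these data known. Every member was found in the count table, and all 39 passed the filter on low counts. The cells came from wildtype C57BL/6J mice or from AhR-deficient B6.129-Ahr tm1Bra/J mice, which lack the aryl hydrocarbon receptor, a ligand-activated transcription factor, in all tissues from birth. Each genotype was left unstimulated or was given lipopolysaccharide (LPS), the bacterial cell wall component sensed by TLR4, at 97 EU/ml for 24 h on day 6 of culture. With 6 libraries in each of the 4 groups, there were 24 libraries in all. All cultures received 10 ng/ml GM-CSF and 2 ng/ml TGF-β, which drive an alveolar-like phenotype, and the labels add the calcium ionophore A23187 (5 µM for 10 min) after the 24 h of stimulation, without saying whether unstimulated cultures received it. The knockout strain can carry DNA of its donor strain around the targeted gene on chromosome 12, where Nfkbia and Traf3 also lie, 20 and 75.7 Mb away. The study describes 6 animals per group in a single experiment, but the labels do not say which library came from which animal, nor whether unstimulated and LPS-treated libraries share animals.

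Toll-like receptors recognise conserved microbial molecules at the cell surface or in endosomes. They signal through the adaptors MyD88 and TRIF to IRAK kinases, TRAF ligases and the IkB kinase complex. That complex marks IkB proteins for degradation and so frees NF-kB dimers, which switch on cytokine genes and, at the same time, the genes of their own inhibitors. In macrophages this loop sets the size and the duration of the response to LPS, and lung macrophages meet inhaled LPS as a matter of course.

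RefSeq promoters (build GRCm38.p6, 250 bases before to 50 bases after an annotated start) were listed for 30 of the 39 members, with 38 starts. A match to the NF-kB consensus, on either strand and with overlapping matches kept, stood in 13 of these 38 promoters (34.2%) and in 1480 of all 32851 listed promoters of the same length (4.51%). The 11 genes with a match were Bcl3, Nfkb2, Nfkbia, Nfkbie, Rel, Tlr2, Tlr3, Tnfaip3, Tnip1, Tnip3 and Traf3. As examples, stretches around the matches of 6 of them are shown, all subunits or inhibitors whose LPS response is described further on. The inhibitors Bcl3 and Tnip1 are left out, and Nfkb2 is shown at its start with the most matches. Each stretch shown reads 5′ to 3′ in the direction of its gene, with every base of a match in capitals.
Nfkbia, chr12:55492652-55492691, minus strand: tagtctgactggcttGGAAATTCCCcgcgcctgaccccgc
Nfkbie, chr17:45555579-45555618, plus strand: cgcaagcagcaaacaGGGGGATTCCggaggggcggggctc
Nfkb2, chr19:46304683-46304750, plus strand: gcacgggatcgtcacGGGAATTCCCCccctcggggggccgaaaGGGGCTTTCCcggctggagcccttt
Rel, chr11:23771036-23771076, minus strand: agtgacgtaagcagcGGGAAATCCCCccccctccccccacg
Tnfaip3, chr10:19015398-19015550, minus strand: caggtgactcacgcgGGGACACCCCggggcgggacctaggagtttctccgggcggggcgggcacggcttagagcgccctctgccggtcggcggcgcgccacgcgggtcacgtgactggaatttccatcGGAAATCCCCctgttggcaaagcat
Tnip3, chr6:65590329-65590368, plus strand: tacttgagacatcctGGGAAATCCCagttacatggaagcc
The matches of Nfkbia, Nfkb2 and Tnip3 lay close to the start, their first bases at -29, -39 and -54. Rel and Nfkb2 each held overlapping matches, so that 1 stretch counts more than once. The core of the AhR response element, GCGTG, searched on both strands, was found in 15 of the 38 member promoters (39.5%) against 32.4% of all promoters. A match is a string of letters and does not show that a factor was bound.

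Library sizes ranged from 45106052 to 76992663 counted fragments. Levels are given as CPM (counts scaled to the size of the library, corrected by TMM factors), and per kb of exon where genes are compared with each other. Differences are log2 fold changes ± standard error (SE) from edgeR's quasi-likelihood test, with Benjamini-Hochberg adjusted p over the 16593 genes tested. A differentially expressed gene (DEG) has an adjusted p no higher than 0.05 and changes 2-fold or more. The Ahr gene itself averaged 28.3 ± 12.2 CPM (SD, n = 6) in unstimulated wildtype and 7.41 ± 2.39 in unstimulated AhR-deficient BMDMs (-1.93 ± 0.36 on the log2 scale, adjusted p = 0.00097). LPS-treated libraries had the reverse order, with 16.8 ± 7.63 CPM in wildtype and 43.1 ± 16.1 in AhR-deficient BMDMs (1.36 ± 0.35, adjusted p = 0.011). The targeted allele removes only a piece of the gene, so whole-gene counts do not check the labels. The groups are called by their labels throughout, and every genotype direction after LPS rests on libraries in which the Ahr count was higher where the label says AhR-deficient. Epcam, an epithelial and Langerhans cell marker picked after its values were seen, kept 1 order in both states, at 35.5 to 101 CPM in wildtype and 0.781 to 3.38 in AhR-deficient BMDMs without stimulation and at 6.42 to 17.4 and 0 to 0.315 CPM after LPS. All 7 macrophage markers and at least 9 of 10 alveolar macrophage markers averaged 1 CPM or more in each group. In 2 wildtype libraries, 1 unstimulated and 1 given LPS, Y-linked genes were near 0 while the other libraries had them. Of the members, Tlr7, Tlr8, Tlr13 and Irak1 are X-linked. Calls without these libraries are given in the closing section.

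Receptor levels spanned more than 3 orders of magnitude in unstimulated wildtype BMDMs. Tlr2, the receptor for bacterial lipoproteins, was the most abundant at 292 CPM per kb, followed by Tlr4, the LPS receptor, at 42.4 CPM per kb. The endosomal receptors for RNA came next, Tlr13 at 20.5, Tlr7 at 15.8 and Tlr8 at 14.8 CPM per kb, and these 3 do not separate beyond the spread of their libraries. Tlr6, which pairs with TLR2, stood at 5.04 CPM per kb and Tlr3, the double-stranded RNA receptor, at 1.95. Tlr9, Tlr1 and Tlr5, which recognise unmethylated DNA, triacylated lipoproteins and flagellin, lay at 0.273, 0.253 and 0.0894 CPM per kb. Tlr9 had no counts in the lowest library of 3 of the 4 groups, which makes its order among the low receptors uncertain. Of the LPS co-receptors, Cd14 was at 38.9 CPM per kb, close to Tlr4, and Ly96 (MD-2) at 5.57.

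**Figure D1:**
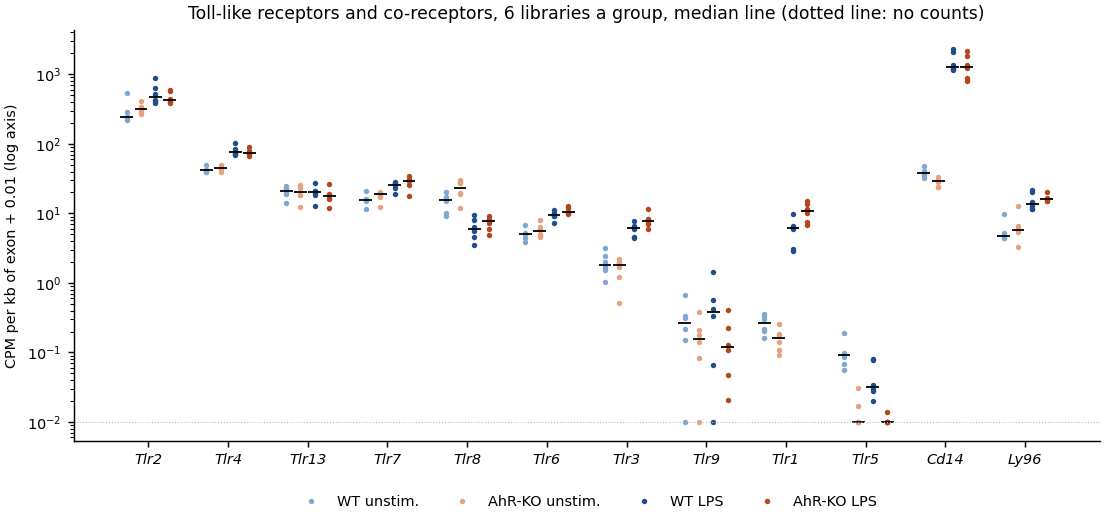
Level of the 10 Toll-like receptors and the co-receptors Cd14 and Ly96 in each library, as CPM per kb of exon plus 0.01 on a log axis, with 6 points and a median line for each group. Tlr2 and Tlr4 lead the unstimulated receptors, Cd14 and Tlr1 rise most after LPS, and Tlr5 of AhR-deficient libraries sits on or near the dotted line that marks no counts.

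LPS moved most of the pathway upward in both genotypes. In wildtype BMDMs 22 of the 39 members were DEGs that rose and 1, Tlr8, fell, against 13.2% and 11.8% of all genes. In AhR-deficient BMDMs 21 rose and 1 fell, again Tlr8, against 15.1% and 15.7% of all genes, and 20 members rose in both. By adjusted p alone 28 and 27 members passed, against 38% and 44.6% of all genes. The median log2 fold change of the members was 1.45 in wildtype and 1.32 in AhR-deficient BMDMs, while that of all genes was 0.03 and -0.03.

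Of the co-receptors, Cd14 responded far more than Ly96. Cd14, which hands LPS to TLR4, went from 55.8, 66.1 and 84.1 CPM (lowest, median and highest of 6 wildtype libraries) to 1980, 2220 and 4020 CPM, a log2 fold change of 5.32 ± 0.27 (adjusted p = 5.2e-13). In AhR-deficient BMDMs it went from 41.1, 50.4 and 58.5 to 1390, 2220 and 3750 CPM (5.60 ± 0.27, adjusted p = 1e-13). Every LPS library therefore lay far above every unstimulated library, and the genotypes overlapped after LPS. Ly96 rose less, by 1.45 ± 0.27 in wildtype and 1.32 ± 0.27 in AhR-deficient BMDMs. Tlr4 itself did not reach the 2-fold limit, although its unstimulated and LPS libraries did not overlap in either genotype. It rose by 0.91 ± 0.11 in wildtype (adjusted p = 5.7e-07) and by 0.75 ± 0.11 in AhR-deficient BMDMs (adjusted p = 5.5e-06).

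Among the other receptors, Tlr1 and its neighbour on chromosome 5, Tlr6, both partners of TLR2, differed widely in the size of their response. Tlr1 went from a median of 0.845 to 20.7 CPM in wildtype, a log2 fold change of 4.51 ± 0.35, whereas Tlr6 rose by 0.90 ± 0.15. These paralogs are similar in sequence and only uniquely aligned reads were counted, so fragments from shared stretches are missing from both. Tlr3 rose by 1.60 ± 0.29 in wildtype and 2.33 ± 0.30 in AhR-deficient BMDMs. Tlr7 and Tlr8, neighbours on the X chromosome that both sense single-stranded RNA, moved in opposite directions. Tlr7 rose by 0.67 ± 0.16 in wildtype (adjusted p = 0.0018) and 0.64 ± 0.16 in AhR-deficient BMDMs (adjusted p = 0.0019). Tlr8 went from 32.9, 56.6 and 73.3 to 12.7, 21.4 and 34.5 CPM in wildtype, with a slight overlap (-1.24 ± 0.26, adjusted p = 0.00047). In AhR-deficient BMDMs it went from 42.9, 83.6 and 108 to 17.4, 27.6 and 33.1 CPM without overlap (-1.63 ± 0.26, adjusted p = 1.5e-05). Tlr13 changed by -0.03 ± 0.20 in wildtype and -0.16 ± 0.20 in AhR-deficient BMDMs, neither past the threshold. Tlr2 rose by 0.90 ± 0.23 in wildtype (adjusted p = 0.0027) and had a value of 0.53 ± 0.23 in AhR-deficient BMDMs (adjusted p = 0.059). That pair does not show a genotype effect, as the interaction of Tlr2 was -0.37 ± 0.32 (adjusted p = 0.82).

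None of the 4 adaptors was called after LPS in either genotype. Myd88, through which all Toll-like receptors except TLR3 signal, stood at 125, 151 and 206 CPM in unstimulated and 139, 170 and 222 CPM in LPS-treated wildtype BMDMs (0.18 ± 0.15, adjusted p = 0.40). Ticam1 (TRIF) and Tirap varied more between libraries of 1 group than between conditions, with wildtype values of 0.83 ± 0.49 and 0.43 ± 0.41.

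Of the 8 kinases and ligases, 4 rose in wildtype and 3 in AhR-deficient BMDMs, and none fell. Traf1, a ligase adaptor of TNF receptor signalling that is itself known as an NF-kB target, showed the greatest change of all members. It went from 1.61, 5.24 and 7.82 to 179, 287 and 336 CPM in wildtype (5.75 ± 0.36, adjusted p = 1.7e-11) and from 1.04, 3.01 and 4.05 to 276, 305 and 345 CPM in AhR-deficient BMDMs (6.74 ± 0.38, adjusted p = 1.1e-12). Ikbkb, the catalytic IkB kinase, rose by 1.46 ± 0.20 and 1.20 ± 0.20, and Ikbke, a related kinase upstream of interferon, by 1.72 ± 0.38 and 1.79 ± 0.38. Traf6, the ligase next to the IRAKs, rose past 2-fold in wildtype (1.07 ± 0.22) but not in AhR-deficient BMDMs (0.86 ± 0.22), with an adjusted p of 0.97 for the difference. The proximal kinases Irak1 and Irak4 had negative values that did not pass, -0.42 ± 0.37 and -0.44 ± 0.29 in wildtype and -0.74 ± 0.37 and -0.60 ± 0.29 in AhR-deficient BMDMs. Irak2, which sustains late signalling, rose by 0.85 ± 0.24 (adjusted p = 0.0076) and 0.63 ± 0.24 (adjusted p = 0.037), below 2-fold.

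The NF-kB subunits rose as a group, 4 of 5 in wildtype and 5 of 5 in AhR-deficient BMDMs. Nfkb2 (p100/p52) rose by 3.02 ± 0.47 and 2.99 ± 0.46, Rel by 2.37 ± 0.28 and 2.12 ± 0.28, and Nfkb1 (p105/p50) by 1.65 ± 0.57 and 1.98 ± 0.57. Rela, the p65 subunit, had 0.97 ± 0.40 in wildtype (adjusted p = 0.063) and 1.04 ± 0.40 in AhR-deficient BMDMs (adjusted p = 0.039), values that differ by far less than their errors. The call in AhR-deficient BMDMs was lost in 10 of 34 alternative settings. Relb rose 7.17-fold in wildtype and 3.47-fold in AhR-deficient BMDMs, a difference described with the genotype comparison.

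All 5 IkB genes rose in both genotypes. Nfkbia (IkBα), the classical inhibitor resynthesised after each NF-kB pulse, rose by 2.36 ± 0.31 and 2.90 ± 0.32. Nfkbib rose by 2.39 ± 0.14 and 2.73 ± 0.14 and Nfkbie by 2.54 ± 0.23 and 2.89 ± 0.23. Nfkbiz, a nuclear IkB needed for secondary response genes such as Il6, went from 0.378, 0.794 and 1.07 to 18.9, 21.2 and 34.3 CPM in wildtype (4.89 ± 0.42). In AhR-deficient BMDMs it went from 0.0454, 0.265 and 0.793 to 17.1, 19.8 and 36.8 CPM (6.20 ± 0.46). The LPS levels overlapped between genotypes. The unstimulated difference was -1.24 ± 0.39 (adjusted p = 0.06), which passed in 7 of 34 alternative settings, and the interaction was 1.31 ± 0.53 (adjusted p = 0.22). Bcl3, another nuclear IkB, rose by 2.33 ± 0.78 and 2.20 ± 0.78, with wide errors.

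The other feedback inhibitors rose with them, 5 of 5 in wildtype and 4 of 5 in AhR-deficient BMDMs. Zc3h12a (Regnase-1), which degrades cytokine mRNAs, rose by 4.13 ± 0.40 and 4.35 ± 0.40, and Tnfaip3 (A20), the deubiquitinase that switches off the IkB kinase, by 3.45 ± 0.25 and 3.51 ± 0.25. Irak3 (IRAK-M), the inhibitory member of its family, rose by 2.52 ± 0.49 in both genotypes. The A20-binding proteins Tnip1 and Tnip3 rose by 2.59 ± 0.93 and 1.45 ± 0.21 in wildtype. In AhR-deficient BMDMs Tnip3 rose by 1.93 ± 0.21, and Tnip1 had 2.23 ± 0.91 with an adjusted p of 0.051. The Tnip1 call was lost in 8 of 34 alternative settings in wildtype and gained in 15 of 34 in AhR-deficient BMDMs. The 11 members whose listed promoter holds an NF-kB match had LPS values between 0.90 and 3.45 in wildtype, and 9 of them were called higher. The 19 listed without a match ranged from -1.32 to 5.75, with 7 called higher and 1 lower. The greatest change, that of Traf1, was among them. In AhR-deficient BMDMs 8 of the 11 were called higher, and of the 19, 7 were higher and 1 lower. Of all genes 13.2% were higher and 11.8% lower in wildtype, and 15.1% and 15.7% in AhR-deficient BMDMs. Cd14, Ly96, Tlr4, Tlr7, Ticam2, Ikbkb, Nfkb1, Relb and Nfkbiz had no listed promoter and are in neither count.

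**Figure D2:**
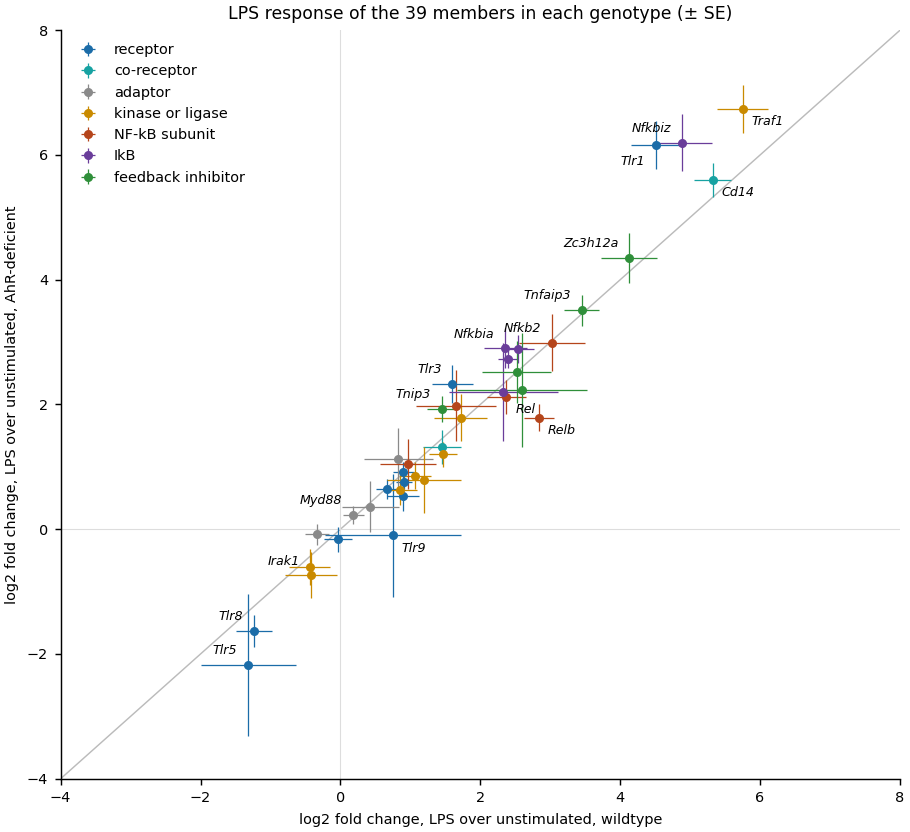
Log2 fold change of LPS over unstimulated in wildtype (horizontal axis) and AhR-deficient BMDMs (vertical axis) for the 39 members, coloured by role, with SE bars and the line of equal response. IkB genes and feedback inhibitors lie in the upper right, and of the adaptors Ticam1 (0.83 and 1.13) lies farthest from 0. Relb lies below the line (2.84 and 1.79), and Tlr1 (4.51 and 6.16) and Nfkbiz (4.89 and 6.20) above it.

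Few members were called between the genotypes. Without stimulation 1 member was a lower DEG (Tlr5) and 0 were higher, against 3.57% and 0.916% of all genes, and 2 passed by adjusted p alone (6.12% of all genes). Tlr5 was the 1 member that passed the filter on low counts through wildtype libraries alone, so its calls in both states are a description and support nothing. The count at an unadjusted p under 0.05 was 6, and DESeq2 called 2 DEGs. After LPS 2 members were lower DEGs (Tlr5 and Relb) and 1 was higher (Ticam2), against 6.19% and 2.17% of all genes, and 4 passed by adjusted p alone (12.6%). These shares are near the background and do not set the members apart from other genes. The median log2 fold change of the members was 0.08 without stimulation and 0.11 after LPS, beside -0.01 and -0.05 for all genes. For Tlr4 the 95% interval of the genotype difference was -0.15 to 0.31 without stimulation and -0.30 to 0.16 after LPS, and for Myd88 it was -0.41 to 0.23 and -0.36 to 0.28.

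**Figure D3:**
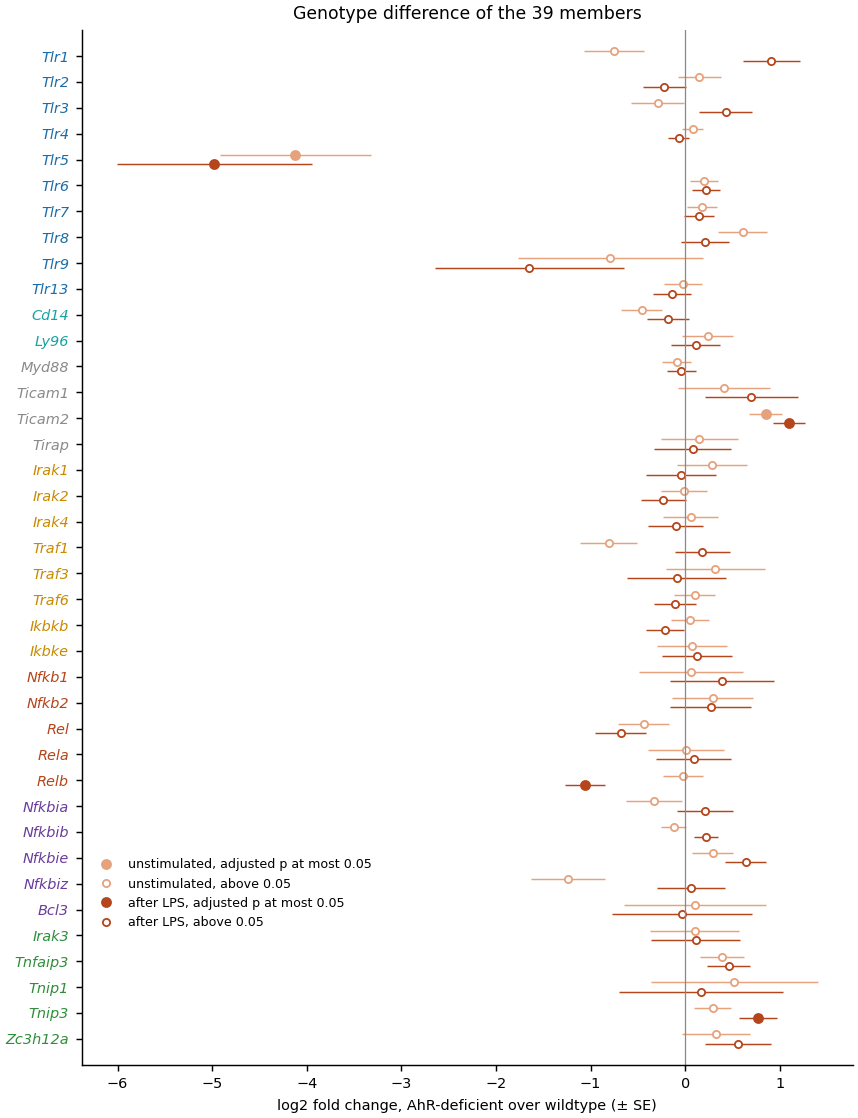
Log2 fold change of AhR-deficient over wildtype BMDMs for each member, unstimulated (light) and after LPS (dark), with SE bars and filled points where the adjusted p was at most 0.05. Filled points are those of Tlr5 and Ticam2 in both states and of Relb and Tnip3 after LPS, and Tnip1, Tlr5 and Tlr9 carry the widest errors.

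Ticam2, which encodes TRAM, the adaptor that couples internalised TLR4 to TRIF, was higher in AhR-deficient BMDMs in both states. Unstimulated libraries held 26, 33.9 and 42.2 CPM in wildtype and 48, 58.7 and 77.7 CPM in AhR-deficient BMDMs (0.85 ± 0.17, adjusted p = 0.0022). After LPS they held 20.5, 26.6 and 35 against 40.9, 55 and 84 CPM (1.10 ± 0.17, adjusted p = 8.8e-05). The genotypes did not overlap in either state, and LPS itself did not change the gene past the threshold (-0.33 ± 0.17 in wildtype and -0.08 ± 0.17 in AhR-deficient BMDMs). The gene shares 14.5% of its exon bases with Tmed7, a trafficking gene on the same strand, and reads there cannot be assigned to one of them. Tmed7 was at 330 ± 108 CPM in wildtype and 316 ± 74.4 in AhR-deficient BMDMs without stimulation, and its own difference was -0.06 ± 0.21 and, after LPS, 0.03 ± 0.21. The partner adaptor Ticam1 had positive values too, 0.41 ± 0.49 and 0.70 ± 0.49, neither past the threshold. After LPS its adjusted p fell as low as 5.4e-05 under the alternative settings, with changes below 2-fold throughout.

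Relb, the subunit that pairs with p52 in the non-canonical pathway and is known for its role in dendritic cells, was not called between unstimulated genotypes, at 15, 21.5 and 24.8 CPM in wildtype and 14.9, 22.1 and 26.5 in AhR-deficient BMDMs (-0.02 ± 0.21, 95% interval -0.44 to 0.41). After LPS it reached 82.8, 174 and 194 CPM in wildtype but 55.8, 74.4 and 82.1 CPM in AhR-deficient BMDMs (-1.06 ± 0.21, adjusted p = 0.00092). The ranges came close without overlapping. The interaction, which tests whether LPS acts differently in the genotypes, was -1.05 ± 0.29 (adjusted p = 0.041), and this call was lost in 20 of 33 alternative settings, with adjusted p up to 0.087.

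The median summed level of dendritic and Langerhans cell markers was lower in AhR-deficient BMDMs after LPS, beside Relb, and also without stimulation, where Relb was not called. Their summed level over 8 markers was 580 to 2450 CPM in wildtype and 100 to 894 CPM in AhR-deficient BMDMs after LPS, against 74.5 to 211 and 10.1 to 19.1 CPM without stimulation. After LPS most of the sum was Ccr7, a chemokine receptor that LPS itself induces. In these groups Cd209a had no counts in wildtype and Cd207 none in AhR-deficient libraries, while Flt3 averaged 18.6 and 0.0397 CPM. Within wildtype the library with the lowest sum (580 CPM) held 92.4 CPM of Relb and the next (820 CPM) 82.8 CPM. The 3 wildtype libraries with sums of 1620, 1710 and 2450 CPM held between 191 and 194 CPM of Relb. Within AhR-deficient libraries the order differed. The library with the lowest sum (100 CPM) held the highest Relb level (82.1 CPM), the one with a sum of 894 CPM held 79.8 CPM, and the other 4, with sums of 117 to 374 CPM, held 55.8 to 74.9 CPM. In bulk RNA, fewer cells of a type and less RNA per cell cannot be told apart, and the part of these cells in the Relb difference was not tested.

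Tnip3 was higher in AhR-deficient BMDMs after LPS by less than 2-fold. It held 43.4, 74 and 87 CPM in wildtype and 92.6, 115 and 140 CPM in AhR-deficient BMDMs, without overlap (0.77 ± 0.20, adjusted p = 0.012, and up to 0.12 under the alternative settings). Its unstimulated value was 0.29 ± 0.20, and the interaction of 0.48 ± 0.29 did not pass. Some other IkB and inhibitor genes had positive values after LPS that did not pass, with Nfkbie at 0.64 ± 0.22 (adjusted p = 0.057), Zc3h12a at 0.56 ± 0.35 and Tnfaip3 at 0.46 ± 0.23. Under the alternative settings their adjusted p fell as low as 6.2e-05, 0.041 and 9.2e-05, with changes below 2-fold throughout.

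Tlr1 was the second member with an interaction past the threshold. Unstimulated, it held 0.505, 0.845 and 1.16 CPM in wildtype and 0.273, 0.5 and 0.838 CPM in AhR-deficient BMDMs (-0.75 ± 0.32, adjusted p = 0.24). After LPS it held 9.52, 20.7 and 32.2 CPM in wildtype and 22.9, 36.1 and 50.5 CPM in AhR-deficient BMDMs (0.91 ± 0.30, adjusted p = 0.053). This difference was called a DEG in 4 of 34 alternative settings. Neither genotype difference passed and the libraries overlapped in both states, but the differences had opposite signs and the interaction was 1.66 ± 0.44 (adjusted p = 0.031). It missed the threshold in 8 of 33 alternative settings, with adjusted p up to 0.058. Thus 1 of the 39 members had a higher and 1 a lower interaction, against 1.95% and 2.34% of all genes.

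Tlr5 was lower in AhR-deficient BMDMs, at levels near the limit of detection. Unstimulated wildtype libraries held 0.216, 0.389 and 0.865 CPM, from 179 fragments in all, whereas 4 of the 6 AhR-deficient libraries had no fragment and the group had 9. Scaled for library size, wildtype was 19 times AhR-deficient, with a 95% exact interval of 9.78 to 42.2 that covers counting error only. After LPS wildtype had 58 fragments and AhR-deficient 1, a ratio of 52.4 with an interval from 9.04 to 2100. The gene passed the filter on low counts, 0.174 CPM in at least 6 libraries, in 8 wildtype and 0 AhR-deficient libraries, so no p is given for it. Its fitted values of -4.12 ± 0.80 and -4.98 ± 1.03 on the log2 scale depend on how such low counts are smoothed. Neutrophil markers moved the same way. Their summed level over 7 markers was 347 to 969 CPM in wildtype and 31.7 to 61.9 CPM in AhR-deficient BMDMs without stimulation, and 89.2 to 601 against 21.8 to 49.9 CPM after LPS. Most of the unstimulated wildtype sum was Mmp8 and Ltf, which averaged 321 and 204 CPM. Of the defining markers Ly6g averaged 4.12 and 0.416 CPM without stimulation, and Mpo was near 0 in both genotypes. After LPS Ly6g averaged 0.483 CPM in wildtype and 0.292 in AhR-deficient BMDMs, with overlapping libraries. The unstimulated sum of the dendritic and Langerhans cell markers was lower in AhR-deficient BMDMs too, but single markers differed, as Clec9a averaged 2.53 CPM in wildtype and 6.42 in AhR-deficient BMDMs and Zbtb46 3.42 and 3.44. The part of either cell type in the Tlr5 difference was not tested.

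**Figure D4:**
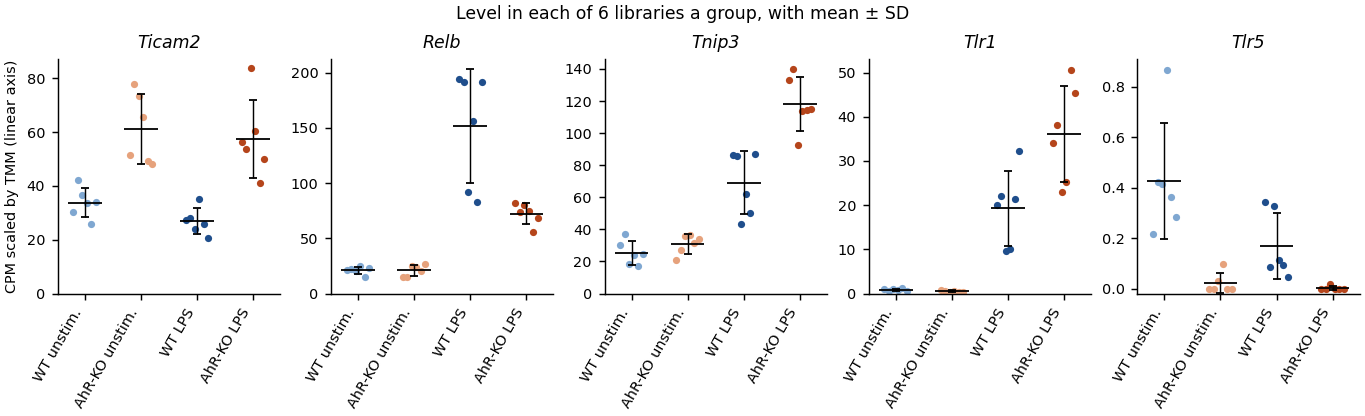
CPM of Ticam2, Relb, Tnip3, Tlr1 and Tlr5 in each of the 24 libraries on linear axes, with the mean and SD of each group of 6. Ticam2 separates the genotypes in both states, Relb and Tnip3 only after LPS, and Tlr1 overlaps throughout.

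Members differed greatly in how far they varied within a group. The residual SD of log2(CPM + 0.5) within groups ran from 0.16 for Tlr4 to 1.68 for Tnip1, with a median of 0.45. Tnip1 ranged from 1.13 to 27.5 CPM in unstimulated wildtype and from 7.99 to 189 CPM in LPS-treated wildtype BMDMs. Bcl3 (1.29), Nfkb1 (1.11), Traf3 (0.94) and Irak3 (0.91) followed. Their residuals moved together over the 24 libraries, with Pearson's r of 0.95 between Tnip1 and Bcl3 and 0.97 between Bcl3 and Nfkb1, from the same libraries. They also moved with a library property, the slope of log2 CPM on log2 gene length over all genes, at r = 0.96 for Tnip1 and 0.97 for Nfkb1. Of the 39 members, 22 had r of at least 0.7 with this slope and 6 had r of -0.5 or less, among them Myd88 (-0.92) and Nfkbia (-0.85). Ticam2, Relb and Tnip3 had residual SDs of 0.29, 0.37 and 0.35 and r of 0.68, 0.41 and 0.12, while Tlr1 had 0.45 and r of -0.70. With the slope as a covariate, the difference of Relb after LPS and that of Ticam2 in both states kept the side of the threshold given above, and the differences of Tlr1 passed by adjusted p below 2-fold (-0.77 without stimulation, adjusted p = 0.032, and 0.89 after LPS, adjusted p = 0.0011). In the interaction 7 members passed, 6 higher and 1 lower, against 8.02% and 8.42% of all genes in the same fit. The added ones were Tlr3 (0.87), Ticam1 (0.64), Traf1 (1.05), Nfkb1 (0.68) and Nfkbiz (1.35), all higher. What sets the slope was not tested. Other members also passed by adjusted p below 2-fold in some alternative settings. The lowest adjusted p was 0.0069 for Tlr8 without stimulation, and 0.0024 for Nfkb1, 0.0067 for Rel and 0.011 for Nfkb2 after LPS.

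**Figure D5:**
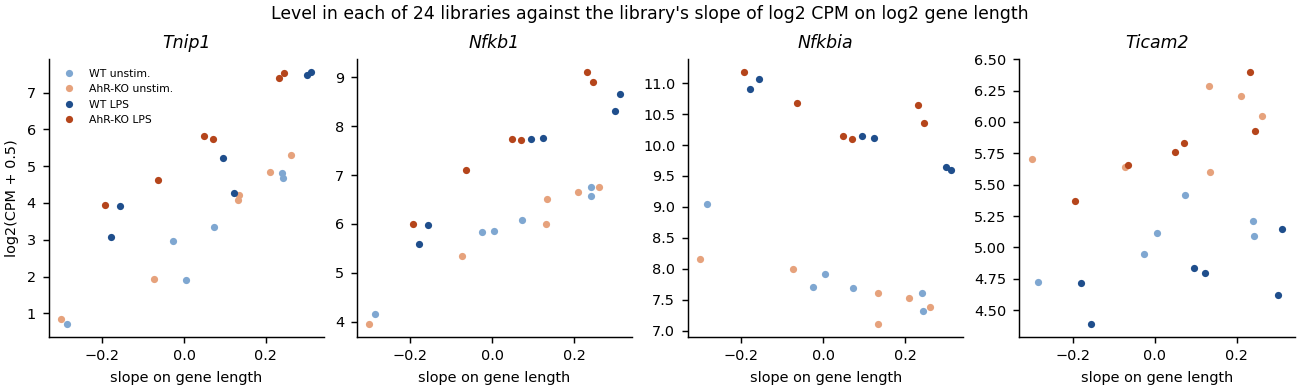
Log2(CPM + 0.5) of Tnip1, Nfkb1, Nfkbia and Ticam2 in each of the 24 libraries against the slope of log2 CPM on log2 gene length in that library. Tnip1 and Nfkb1 climb with the slope within each group, Nfkbia falls with it, and the genotypes of Ticam2 stay apart across it.

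The libraries carry numbers that fall into 3 runs of 8, with 2 libraries of each group in each run. The labels do not call these runs batches. Within them the genotype difference of Ticam2 on log2(CPM + 0.5) was 0.81, 0.98 and 0.70 without stimulation and 0.98, 1.28 and 0.96 after LPS. That of Relb after LPS was -1.30, -0.63 and -1.02, and that of Tnip3 0.66, 0.97 and 0.79, so each kept its sign in every run. The interaction of Tlr1 was 0.86, 1.80 and 1.46 and that of Relb -0.79, -0.74 and -1.32. The values of Tlr1 depend on the 0.5 added, which is near its unstimulated level. Nfkbiz without stimulation gave 0.01 in the first run and -0.99 and -0.93 in the others.

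Other genes of the pathway, taken from lists of 11 receptor co-factors, 30 signalling genes and 19 inhibitors, were counted in the same fit. Of the 58 tested, 22 rose after LPS in each genotype, against 13.2% of all genes in wildtype and 15.1% in AhR-deficient BMDMs, and 3 and 4 fell, against 11.8% and 15.7%. By genotype 1 was higher and 2 lower without stimulation, against 0.916% and 3.57% of all genes, and 3 were higher and 3 lower after LPS, against 2.17% and 6.19%. Cd36, a scavenger receptor that works with TLR2, was higher in AhR-deficient BMDMs in both states, at 58.8 and 239 CPM without stimulation (2.02 ± 0.29). Cd180, a TLR4-like receptor without a signalling domain, was higher after LPS (2.51 ± 0.34). Socs1, an inhibitor of cytokine signalling, was lower without stimulation (-1.63 ± 0.19), and Peli2, a ligase of IRAK1, Il1rl1 (ST2) and Sigirr, both receptors of the IL-1 receptor family, were lower after LPS (-1.43 ± 0.31, -1.80 ± 0.41 and -1.32 ± 0.29). Irf7, the interferon regulatory factor below the endosomal receptors, was lower without stimulation (-1.46 ± 0.35) and higher after LPS (1.18 ± 0.35).

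Genes that NF-kB is known to switch on were measured downstream of the members. All 34 listed rose after LPS in both genotypes, against 13.2% of all genes in wildtype and 15.1% in AhR-deficient BMDMs. Their median log2 fold change was 4.05 in wildtype and 5.93 in AhR-deficient BMDMs, beside 0.03 and -0.03 for all genes. The list holds known targets and was chosen with earlier results of these data known, so its counts are a description. By genotype 0 were higher and 7 lower without stimulation, against 0.916% and 3.57% of all genes, and 6 were higher and 3 lower after LPS, against 2.17% and 6.19%. The interaction passed for 11 of the 34, all with a greater LPS fold in AhR-deficient BMDMs, where 1.95% of all genes passed in that direction. All genes are not a like background for this count, because every listed gene rose after LPS. The median genotype difference of the list was -0.39 without stimulation and 0.41 after LPS. Beside it, the median summed marker level in wildtype and AhR-deficient BMDMs was 171 and 12.1 CPM for dendritic and Langerhans cells and 605 and 43.8 CPM for neutrophils without stimulation. After LPS it was 1430 and 227 CPM and 211 and 26.5 CPM, and the part of these cells in the list's values was not tested. Il12b, a subunit of IL-12, and Cd83, a maturation marker, were lower without stimulation (-3.20 ± 0.69 and -3.13 ± 0.44). Il12b averaged 0.413 CPM in wildtype and 0.043 in AhR-deficient BMDMs, so its fold depends on how low counts are smoothed, while Cd83 averaged 13.5 and 1.54 CPM. Ptgs2, which encodes cyclooxygenase 2, and Ptx3, a soluble pattern recognition protein, were higher after LPS (2.49 ± 0.42 and 1.92 ± 0.41).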

How the data were processed

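Poly(A) RNA was sequenced in strand-specific libraries. The authors aligned reads to mm10 with GSNAP, counted uniquely aligned reads per Ensembl release 98 gene with featureCounts 2.0.1 and deposited raw counts for 24 libraries, with no normalization. The 92 spike-in sequences, with 1 count in all, were left out. Libraries were grouped by the genotype and treatment in the labels.

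Counts were fitted with edgeR 4.0.16 (R 4.3.3): TMM factors (0.704 to 1.3), its expression filter (16593 genes kept), 1 coefficient for each of 4 groups and the robust quasi-likelihood F-test. P-values were adjusted by Benjamini and Hochberg over all genes tested. The interaction was called by adjusted p alone. The scripts were tested on simulated counts. Library sizes, 45106052 to 76992663, limit precision mainly for Tlr5, Tlr9 and unstimulated Nfkbiz and Tlr1. Unstimulated Tlr1 had 32 to 89 fragments in wildtype libraries and 18 to 39 in AhR-deficient libraries.

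The members and the gene lists were chosen with earlier results of these data known. Named were all members, from each list the called genes with the 2 largest changes in each genotype comparison, Ahr, and, after their values were seen, Tmed7 and Epcam. Markers of other cell types were summed as CPM and not tested. Promoters came from RefSeq (GRCm38.p6). Alternatives were DESeq2 1.42.0, other scalings and filters, covariates, and omission of libraries. Markers listed but not mentioned in the results (T and NK cell, plasmacytoid dendritic, mast and basophil, B and plasma cell) ranged in summed CPM, wildtype against AhR-deficient, from 0.318 to 1.16 against 0.408 to 0.997, 105 to 208 against 70.8 to 172, 4.88 to 18.1 against 1.98 to 4.08 and 8.80 to 40.2 against 0.437 to 1.02 without stimulation. After LPS they ranged from 0.196 to 0.893 against 0.177 to 0.955, 740 to 1730 against 1440 to 2750, 14.7 to 41.1 against 4.55 to 12.5 and 0.71 to 2.07 against 0.0541 to 1.28.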

Additional observations from a re-analysis of the deposited data

Results flagged for a closer look

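In 156 groups of 6 libraries (39 members in 4 groups), 12 had 1 library far from the other 5 by Dixon's criterion, where chance gives about 1 in 20. Wildtype unstimulated library 33 accounted for 6 of them. It was high for Tlr2 (1600 CPM), Tlr4 (276), Ly96 (10.1) and Nfkbia (527) and low for Irak2 (20.4) and Irak4 (8.01). This library also had a low slope of log2 CPM on log2 gene length (-0.285). The other flags were Tlr5 in wildtype unstimulated library 26 (0.865 CPM), AhR-deficient unstimulated library 28 (0.0992) and AhR-deficient LPS library 31 (0.0197), Ly96 in AhR-deficient unstimulated library 19 (13.1) and AhR-deficient LPS library 40 (20.4), and Nfkbiz in wildtype LPS library 29 (34.3).

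The interaction term passed for 2 members, both by edgeR's quasi-likelihood test: Tlr1 (log2 difference 1.66, adjusted p = 0.031) and Relb (-1.05, adjusted p = 0.041). Of all genes 1.95% passed higher and 2.34% lower, so the count is near the background. The Tlr1 call was lost in 8 of 33 alternative settings and the Relb call in 20 of 33.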

How the results depend on the processing

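No called member changed direction under the alternatives run, the omission of single libraries included. Without stimulation the count of members called by genotype was 1. It was 2 with total library size, DESeq2, run as a factor, the length slope as a covariate or no minimum fold, where Nfkbiz (no minimum fold: Ticam2) was added, and 0 with a mean of at least 1 CPM, which removes Tlr5. It ranged from 1 to 2 with 1 library left out (2 without wildtype unstimulated 17 or AhR-deficient unstimulated 19). Without the 5 libraries with a slope below -0.15 (19, 33, 37, 38 and 39), a setting chosen after seeing the data, it was 2, and after LPS it was 5 in place of 3, with Tlr1 (1.14) and Tlr9 (-1.98) added.

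The interaction count of 2 was 1 with total library size, no filter on low counts, or without the libraries that lack Y-linked counts, and 7 with the length slope. It ranged from 0 to 3 with 1 library left out. It was 0 without library 17, 25, 27, 30, 35, 36, 39 or 40, and 1 without 18, 21, 22, 24, 28, 32, 33, 34 or 38. The cause was not tested. Relb after LPS fell below 2-fold without 21, 22 or 38 (lowest change -0.98, adjusted p up to 0.0035), and Ticam2 without 31 (0.96) or with total library size (0.88). Tlr1 after LPS was called a DEG without 31 (1.01) or 38 (1.11). With 1 library left out, counts ranged from 2 to 3 for genotype after LPS, from 20 to 26 for LPS in wildtype and from 20 to 24 for LPS in AhR-deficient BMDMs. LPS calls were lost in wildtype for Tnip1 (without 17, 18, 29, 30, 33 or 34), Nfkb1 (29 or 30), Bcl3 (30) and Traf6 (21 or 33), and in AhR-deficient BMDMs for Rela (19, 20, 31, 32 or 35) and Bcl3 (31, 32 or 35). With total library size the median of all genes for LPS in AhR-deficient BMDMs was -0.52, against -0.03 with TMM. Without the 2 libraries that lack Y-linked counts, 1 member was called by genotype without stimulation, 3 after LPS, 24 for LPS in wildtype and 23 in AhR-deficient BMDMs. After LPS this setting lost Relb (-0.98, adjusted p = 0.0039) and gained Tlr1 (1.11, adjusted p = 0.016). No paired analysis was made, because library numbers are not shared between groups and the labels pair no libraries. The libraries that lack Y-linked counts were 34 (wildtype unstimulated) and 38 (wildtype LPS), and whether they share an animal was not tested. The tests treat all libraries as independent, which would not hold if unstimulated and LPS-treated cultures share animals. With the run of 8 libraries as a blocking factor, 2 members were called by genotype without stimulation, 3 after LPS, 24 and 22 for LPS and 2 in the interaction. Depth limits Tlr5 and Tlr9, each without a fragment in some libraries.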
